A study of Homo sapiens with 15 samples.

Results

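The vesicle coat and ARF genes described here build and run the traffic between the endoplasmic reticulum (ER) and the Golgi. They were chosen by name, as 36 genes for the small GTPases of the ARF and SAR1 families and their exchange factor GBF1, the COPII coat, the COPI coat, the p24 cargo receptors and the SNAREs of that step. Of these, 34 were measured, each on 1 array feature, among 18377 genes measured in all. COPG2 and TMED7 lay on features that also carried the symbol of a neighbouring gene and were not measured singly.

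Total RNA of 2 established prostate cancer cell lines was hybridised to 15 Affymetrix Human Gene ST arrays. PC3 cells came from a bone metastasis and DU145 cells from a brain metastasis. In each line the groups were cells with miR-224 mimic (2 arrays), miR-452 mimic (2 arrays) or scrambled mimic no. 2 (2 arrays in PC3, 1 in DU145), and untransfected cells (2 arrays). Mimics are synthetic small RNAs that act like a mature microRNA and were given at 20 nM with a lipid reagent (Lipofectamine), with a change of medium after 6 h and RNA taken at 48 h. Untransfected cells had no mimic, so they also lacked the transfection itself. Each line is a single cell line in transient culture, and nothing says that the arrays of a group came from separate cultures, so a p-value here reflects array-to-array spread alone, which may be technical.

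Proteins made in the ER leave it in vesicles coated with COPII. The GTPase SAR1 recruits the inner coat of SEC23 and SEC24, where SEC24 picks the cargo, and the outer cage of SEC13 and SEC31 follows. COPI vesicles, whose heptameric coatomer is recruited to Golgi membranes by ARF GTPases that GBF1 has loaded with GTP, carry escaped ER proteins and receptors back. MicroRNAs pair through their seed, bases 2 to 8, with messenger RNAs and lower their levels, and the mapping of seed to these genes is not made here because no transcript sequences were used.

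The labels do not say which arm of each microRNA the mimic stood for, so both mature arms are shown, from RefSeq on GRCh38.p14, 5′ to 3′ with the seed in capitals. The gene pair lies on the minus strand of chromosome X, with miR-224-5p at chrX:151958628-151958652 and miR-452-5p at chrX:151959678-151959699. The 3p arms lie at chrX:151958584-151958606 for miR-224 and chrX:151959634-151959655 for miR-452.
miR-224-5p: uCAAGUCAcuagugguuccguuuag
miR-224-3p: aAAAUGGUgcccuagugacuaca
miR-452-5p: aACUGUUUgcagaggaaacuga
miR-452-3p: cUCAUCUGcaaagaaguaagug
All 4 seeds differ from one another, so the mimics share no seed whichever arm was used.

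Deposited values are log2 levels from RMA16, normalized within each line, so levels are not compared between lines or between genes. The medians of the arrays were 6.94 to 7.05 in PC3 and 6.51 to 6.67 in DU145, and no member lay among the lowest 20% of genes in its mean level. All 5 epithelial markers (EPCAM, KRT8, KRT18, KRT19 and CDH1) were measured, with array means of 9.33 to 10.02 in PC3 and 9.79 to 10.35 in DU145. Not all were high: in PC3 CDH1 read 6.73 to 7.3, and EPCAM 6.85 and 7.11 with miR-224. The 4 measured genes of the leukocyte list, HBB among them, averaged 5.67 to 5.97 in PC3 and 5.6 to 5.93 in DU145. The 6 stromal markers averaged 6.41 to 6.66 in PC3, where COL1A1 read 8.25 to 8.63, and 5.88 to 6.24 in DU145. A change was called where limma's Benjamini-Hochberg adjusted p over all genes was under 0.05. In bulk RNA of this kind, fewer cells of a type and less RNA per cell cannot be told apart.

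The highest count of called coat genes was that of PC3 cells with miR-224 against the scrambled mimic, with 17 calls, beside 5 calls for miR-224 against untransfected PC3 cells. Of the 34 measured members, miR-224 had 15 above and 2 below the scrambled mimic, where 12.1% of all genes were called higher and 4.65% lower. The median change of the members was 0.24, against -0.01 over all genes. The rise took in SAR1A and SAR1B, 5 COPII genes, 4 coatomer genes and 3 SNAREs. Without scrambled replicate c, or without miR-224 replicate b, 7 calls were made in place of 17. Against untransfected PC3 cells, miR-224 gave 3 calls higher (ARF3, SEC24D and SEC31A) and 2 lower (ARF6 and TMED10), with 2.84% of all genes higher and 6.85% lower and a member median of 0.08. With the arrays quantile normalized again within the line these were 8 higher and 2 lower. Their number was 3 without untransfected replicate b or either miR-452 array, and 1 without untransfected replicate c or either miR-224 array.

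PC3 cells with the scrambled mimic also differed from untransfected cells in these genes. They had 0 members higher and 7 lower, where 3.32% of all genes were higher and 10.9% lower. Since untransfected cells lacked both mimic and transfection, the effects of these cannot be told apart here. These 7 were SAR1A, SAR1B, SEC16A, SEC23B, SEC24A, SEC24C and ARCN1, and the count was 1 without untransfected replicate b or scrambled replicate c. Quantile normalization gave 3. The comparison with miR-452 uses neither control: miR-224 had 14 members above and 2 below miR-452 in PC3, against 12.5% and 5.99% of all genes. That count of 16 was 9 without miR-224 replicate b and 10 without miR-452 replicate c.

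With miR-452, every member called against untransfected cells was lower in the values as deposited, in both lines, though most members were not called. PC3 cells with miR-452 had 0 members higher and 9 lower than untransfected cells, where 8.12% of all genes were higher and 14.1% lower. In DU145, 0 were higher and 15 lower, where 8.31% of all genes were higher and 19.9% lower. Of the 9 lower in PC3, 8 were among the 15 lower in DU145: ARF4, SAR1A, SAR1B, GBF1, SEC23A, SEC24A, COPB1 and COPB2. The number of calls depended on normalization and on single arrays. Quantile normalization gave 5 lower in PC3, and 2 higher and 3 lower in DU145, the 2 higher being calls not made as deposited. The PC3 count was 2 without untransfected replicate b and 5 without either miR-452 array. The DU145 count was 2 without either untransfected array, 5 without miR-452 replicate a and 23 without miR-452 replicate c.

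Against the scrambled mimic, miR-452 moved few members. In PC3, SEC24C was higher and ARF4 and SEC23A lower, where 2.89% of all genes were called higher and 2.33% lower. In DU145, SEC24C was higher and ARF4, SEC23A and COPE lower, where 0.577% of all genes were higher and 1.52% lower, and this comparison rests on 1 scrambled array. The DU145 count was 2 without either untransfected array and 7 without miR-452 replicate c. Interferon-stimulated genes moved in the same PC3 comparison: 8 of 10 listed were called higher and 0 lower, and the array means of the list were 8.52 to 8.72 with miR-452, 7.47 to 7.55 with scrambled and 7.56 to 7.61 in untransfected cells. Their part in the changes of the coat genes was not tested. In DU145 limma called 0 of the 10 with miR-452 against scrambled, and 1 at an unadjusted p under 0.05. The list moved in other comparisons too. In PC3, all 10 were called higher with miR-452 than untransfected and all 10 lower with miR-224 than with miR-452. Against untransfected DU145 cells 6 of 10 were called lower with miR-224, 4 with miR-452 and 5 with scrambled, and 0 higher.

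DU145 cells with miR-224 had 1 member higher (SEC24C) and 2 lower (COPG1 and TMED10) than with scrambled, where 0.631% of all genes were higher and 1.31% lower. That count was 1 without miR-224 replicate c. Against untransfected DU145 cells, 0 were higher and 5 lower (ARF6, GBF1, SEC23A, COPG1 and TMED10), and 5.44% of all genes were higher and 15.5% lower, so the members' share was near that of all genes. After quantile normalization the counts were 2 higher and 4 lower. Leaving out either untransfected array or miR-224 replicate c gave 2 calls, leaving out miR-224 replicate a gave 3, and leaving out either miR-452 array gave 11. The DU145 scrambled array gave 1 higher (COPE) and 2 lower (SEC24C and COPB1) than untransfected, where 2.6% of all genes were higher and 9.22% lower. Omitting either untransfected array gave a count of 0, and omitting either miR-452 array gave 9. Set directly against miR-452, miR-224 gave 3 higher (ARF4, SEC23A and TMED9) and 2 lower (COPG1 and TMED10) in DU145, where 3.53% of all genes were higher and 2.38% lower. Here 3 calls were made without either untransfected array or miR-224 replicate a, and 2 without miR-224 replicate c.

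**Figure D1:**
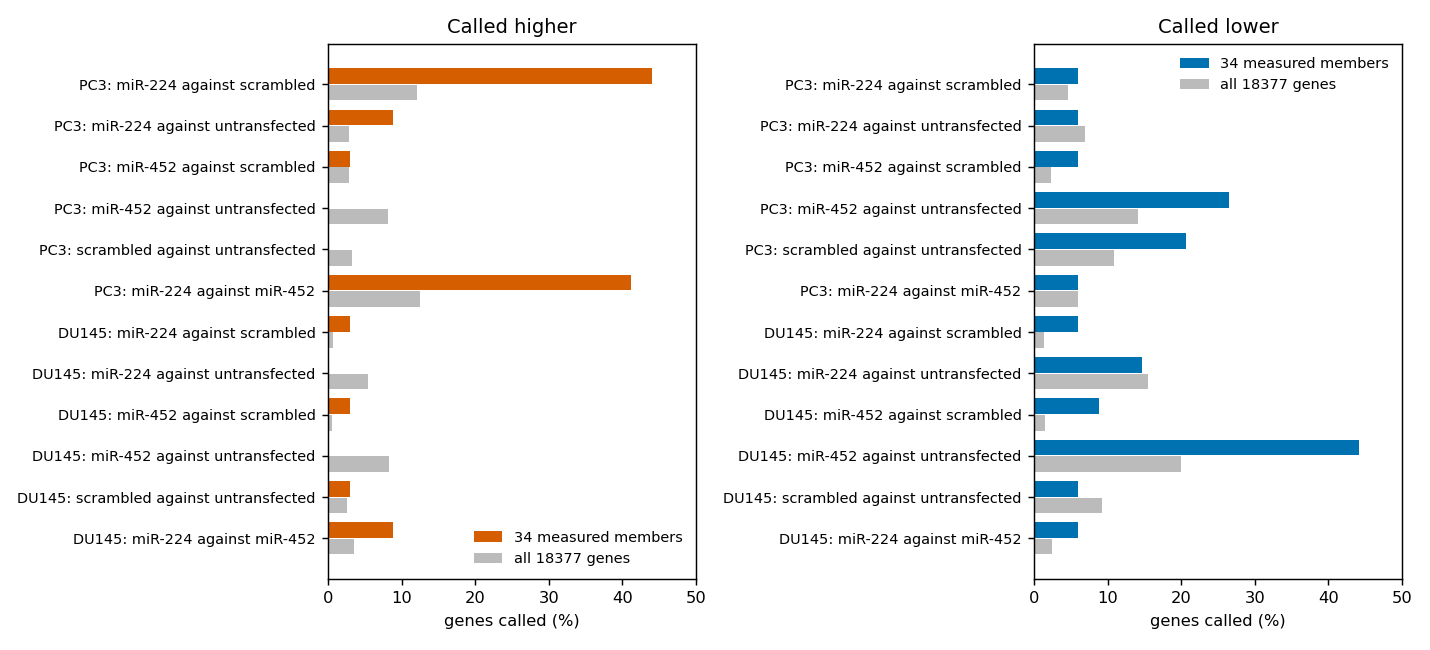
Bars give the percent of genes called higher (left) and lower (right) in each comparison (down the page), coloured for the 34 measured members and grey for all 18377 genes. The members stand furthest above all genes among the rises in PC3 for miR-224 against scrambled (15 members) and against miR-452 (14 members), and among the falls in DU145 for miR-452 against untransfected (15 members).

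**Figure D2:**
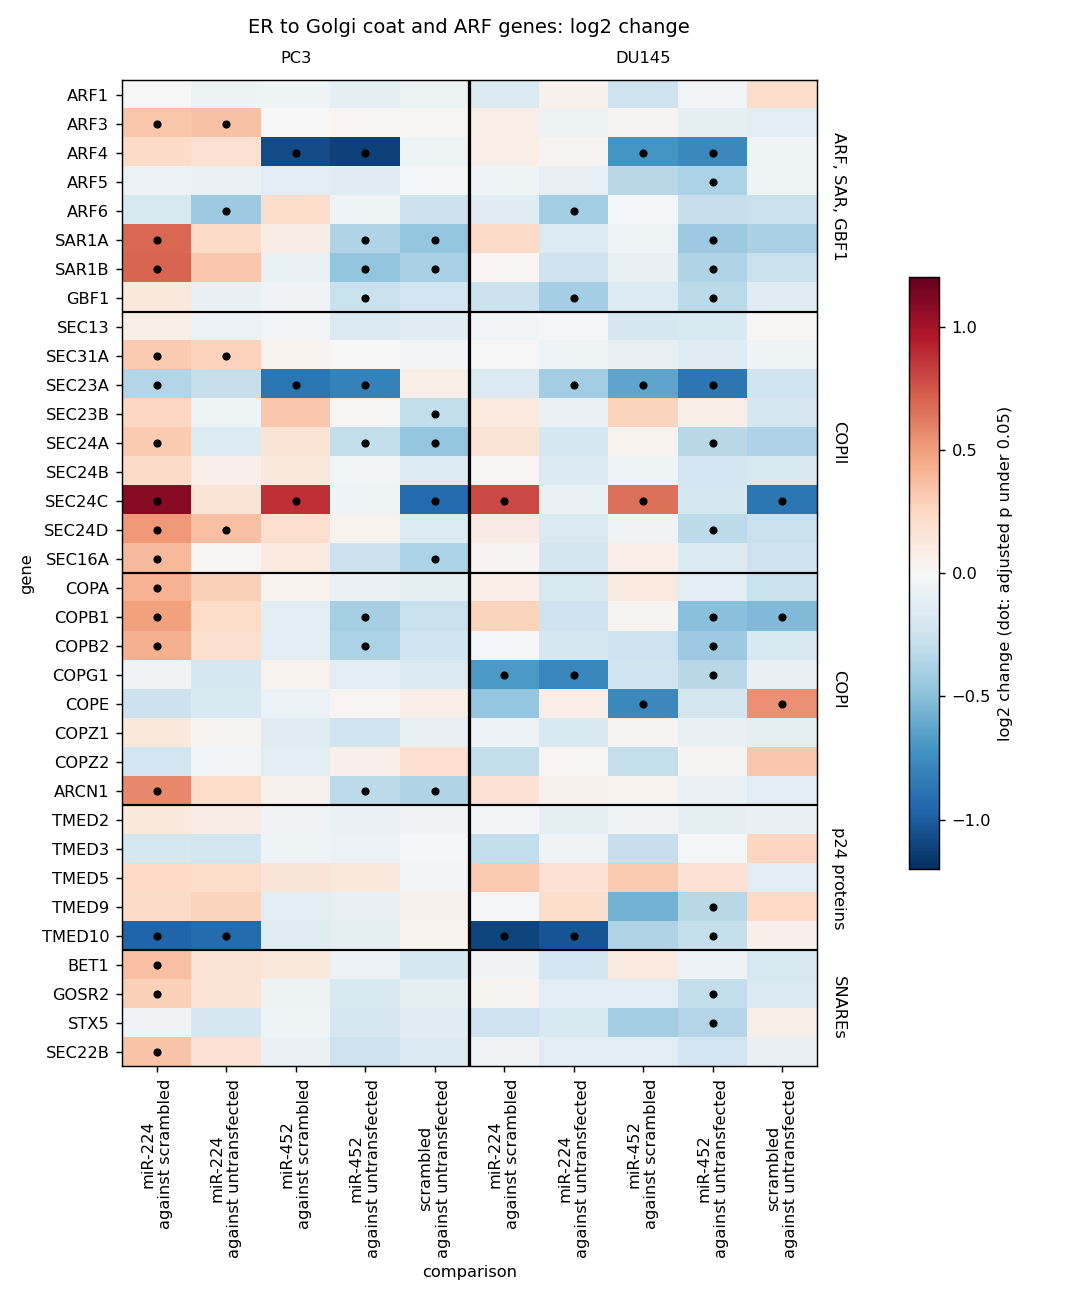
Colour gives the log2 change of each of the 34 members (rows, by role) in each comparison (columns, PC3 left and DU145 right), and a dot marks an adjusted p under 0.05. ARF4 and SEC23A are blue in all 4 miR-452 columns and TMED10 in all 4 miR-224 columns. With either mimic SEC24C is red against scrambled and pale against untransfected, and it is blue for scrambled against untransfected.

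Among the GTPases, ARF4, an ARF of the Golgi and the intermediate compartment, had the largest fall. Its log2 level in PC3 was 12.08 and 11.9 with miR-224, 10.68 and 10.69 with miR-452, 11.73 and 11.78 with scrambled, and 11.85 and 11.76 untransfected. In DU145 it was 10.64 and 10.68 with miR-224, 9.79 and 9.94 with miR-452, 10.58 with scrambled, and 10.67 and 10.59 untransfected. The miR-452 arrays lay below every other array of their line, and the other groups lay close together. Against untransfected cells, miR-452 lowered ARF4 by a log2 change of -1.12 ± 0.085 in PC3 (2.18-fold, limma adjusted p = 2.39e-05) and -0.77 ± 0.091 in DU145 (1.7-fold, limma adjusted p = 0.00185). Against scrambled the changes were -1.07 ± 0.085 and -0.72 ± 0.11. These 4 calls held without each array that could be left out. The DU145 change against scrambled could not be fitted without its single scrambled array. The difference of -0.36 ± 0.12 between PC3 and DU145 in the change against untransfected did not pass (limma adjusted p = 0.166).

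The nearest relatives of ARF4 did not follow it to that extent. ARF5, also a Golgi ARF, was lower with miR-452 than untransfected in DU145 (-0.38 ± 0.092, limma adjusted p = 0.0171), a call lost without either untransfected array or miR-452 replicate a (-0.43 to -0.3) and under quantile normalization (-0.18). In PC3 its change was -0.15. ARF1, the main ARF of COPI recruitment, was called in none of the 8 comparisons of a mimic with a control, with changes of -0.25 to 0.05. ARF3, close to ARF1 in sequence, was higher with miR-224 in PC3, by 0.33 ± 0.096 against scrambled and 0.35 ± 0.096 against untransfected. The call against scrambled was lost without either untransfected array (0.33), scrambled replicate c (0.23) or miR-224 replicate b (0.24) and under quantile normalization (0.28). The call against untransfected was lost without either untransfected array (0.35 and 0.34), either miR-224 array (0.44 and 0.26) or either miR-452 array (0.35). ARF6, the ARF of the plasma membrane, was lower with miR-224 than untransfected in PC3 (-0.44 ± 0.11) and DU145 (-0.42 ± 0.097), and those calls were lost without any 1 array of either group compared, with values of -0.48 to -0.38.

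SAR1A and SAR1B, the GTPases that start the COPII coat, moved together in PC3. SAR1A read 11.69 and 11.84 with miR-224, 11.23 and 11.1 with miR-452, 11.12 and 11.02 with scrambled, and 11.56 and 11.5 untransfected. SAR1B read 10.04 and 10.21 with miR-224, 9.34 and 9.33 with miR-452, 9.38 and 9.47 with scrambled, and 9.96 and 9.67 untransfected. For both genes the miR-224 arrays were the highest, the untransfected arrays came next, and the arrays of miR-452 and scrambled lay together below them. MiR-224 against scrambled raised SAR1A by 0.69 ± 0.087 (limma adjusted p = 0.00048) and SAR1B by 0.7 ± 0.1 (limma adjusted p = 0.000994), and these calls held without each array. Against untransfected cells the changes of 0.23 and 0.32 were not called. MiR-452 against untransfected gave -0.36 ± 0.087 and -0.47 ± 0.1. Without untransfected replicate b both calls were lost (-0.33 each), and SAR1A was also lost without miR-452 replicate c (-0.3).

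In DU145 the 2 SAR1 genes were highest in untransfected cells. SAR1A read 10.18 and 10.23 with miR-224, 9.86 and 10 with miR-452, 9.98 with scrambled, and 10.41 and 10.32 untransfected. SAR1B read 8.7 and 8.83 with miR-224, 8.63 and 8.67 with miR-452, 8.74 with scrambled, and 8.98 and 9.04 untransfected. Every transfected array lay below both untransfected arrays for these 2 genes. Only miR-452 was called against untransfected, by -0.44 ± 0.09 for SAR1A and -0.36 ± 0.088 for SAR1B, and both calls were lost without either untransfected array (-0.48 to -0.33) and under quantile normalization (-0.26 and -0.13), SAR1B also without miR-452 replicate a (-0.34). GBF1, the exchange factor for ARF1, was lower with miR-452 than untransfected in PC3 (-0.27 ± 0.086) and DU145 (-0.32 ± 0.083) and with miR-224 in DU145 (-0.41 ± 0.083). Quantile normalization ended the 3 GBF1 calls (-0.15, -0.11 and -0.25). They also did not survive the loss of either untransfected array, with values of -0.43 to -0.22, the loss of any mimic array in PC3 (-0.3 to -0.24), of either miR-224 array for miR-224 in DU145 (-0.44 and -0.38) or of miR-452 replicate a for miR-452 in DU145 (-0.29).

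**Figure D3:**
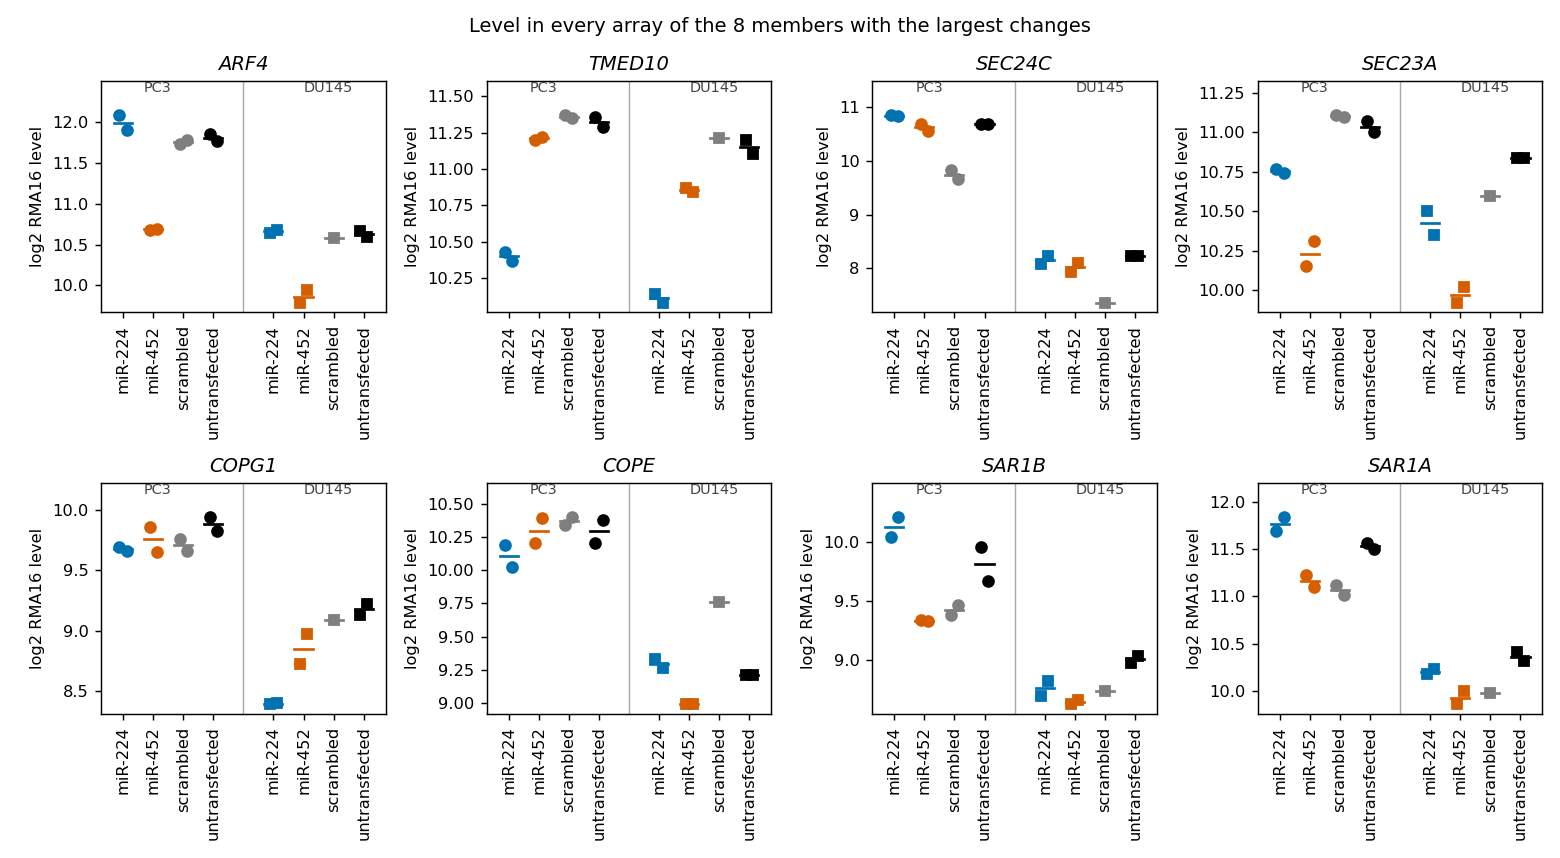
Points give the log2 RMA16 level of the 8 members with the largest called changes in every array (circles PC3, squares DU145), and short lines give group means; the lines were normalized separately, so the left and right sides of a panel are not comparable in level. ARF4 and SEC23A are lowest in the miR-452 arrays and TMED10 in the miR-224 arrays of each line, and SEC24C is lowest in the scrambled arrays.

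In the COPII coat, SEC23A, the inner coat subunit that drives SAR1 to hydrolyse GTP, fell with miR-452 in both lines. It read 10.77 and 10.74 with miR-224, 10.15 and 10.31 with miR-452, 11.11 and 11.1 with scrambled, and 11.07 and 11 untransfected in PC3. It read 10.5 and 10.35 with miR-224, 9.92 and 10.02 with miR-452, 10.6 with scrambled, and 10.84 and 10.84 untransfected in DU145. In each line the miR-452 arrays were lowest, the miR-224 arrays lay between them and the controls, and no groups of mimic and control overlapped. MiR-452 against untransfected gave -0.81 ± 0.081 in PC3 (1.75-fold, limma adjusted p = 0.000136) and -0.87 ± 0.091 in DU145 (1.83-fold, limma adjusted p = 0.00126), both held without each array. Against scrambled it gave -0.88 ± 0.081 and -0.63 ± 0.11, and the DU145 call was lost without either untransfected array (-0.63). MiR-224 lowered it less: -0.35 ± 0.081 against scrambled in PC3 (lost without scrambled replicate c, -0.35, or miR-224 replicate b, -0.33) and -0.42 ± 0.091 against untransfected in DU145 (lost without either untransfected array, -0.42 and -0.41, or miR-224 replicate c, -0.34). The direct comparison of miR-224 with miR-452 was called in both lines, with 0.53 ± 0.081 in PC3 and 0.46 ± 0.091 in DU145, the DU145 call being lost without either untransfected array (0.46) or either miR-224 array (0.38 and 0.53). SEC23B, the close relative of SEC23A, was called in no comparison of a mimic with a control, with changes of -0.08 to 0.32.

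SEC24C, a cargo-selecting subunit, stood apart in the cells with the scrambled mimic. In PC3 it read 10.85 and 10.83 with miR-224, 10.69 and 10.56 with miR-452, 9.82 and 9.67 with scrambled, and 10.68 and 10.68 untransfected. In DU145 it read 8.08 and 8.22 with miR-224, 7.94 and 8.1 with miR-452, 7.36 with scrambled, and 8.23 and 8.23 untransfected. The scrambled arrays were below every other array of their line. Scrambled against untransfected gave -0.93 ± 0.084 in PC3 (1.91-fold, limma adjusted p = 0.000412) and -0.87 ± 0.12 in DU145 (1.82-fold, limma adjusted p = 0.0123). Against scrambled the gene was called higher with miR-224 (1.09 in PC3 and 0.79 in DU145) and with miR-452 (0.88 in PC3 and 0.66 in DU145), whereas against untransfected cells the same changes were 0.16, -0.08, -0.05 and -0.21 and none was called. The PC3 calls held without each array. In DU145 the scrambled call and the miR-452 call were lost without either untransfected array (-0.87 and 0.66), and the miR-224 call without miR-224 replicate c (0.71).

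The other COPII genes had smaller changes, and for SEC24A and SEC16A in PC3 the scrambled arrays were the low ones. SEC24D, another cargo-selecting subunit, was higher with miR-224 than with scrambled (0.52 ± 0.087, limma adjusted p = 0.00218, held without each array) and than untransfected (0.36 ± 0.087), a call lost without untransfected replicate c (0.27) or either miR-224 array (0.38 and 0.34). SEC24A, SEC16A, the scaffold of ER exit sites, and SEC31A, of the outer cage, were higher with miR-224 than with scrambled in PC3 by 0.31, 0.39 and 0.31. Against untransfected cells the miR-224 changes of SEC24A and SEC16A were -0.16 and 0.01, neither called, while scrambled against untransfected was -0.46 and -0.38, both called lower. SEC23B was likewise lower with scrambled than untransfected (-0.3). Without scrambled replicate c (0.28, 0.25 and 0.32), miR-224 replicate a (0.23, 0.4 and 0.33) or miR-224 replicate b (0.38, 0.38 and 0.29) none of the 3 was called, and neither SEC24A nor SEC31A without scrambled replicate b (0.33 and 0.3), nor SEC24A after quantile normalization (0.21). SEC31A was also called against untransfected (0.28 ± 0.075), but not without either untransfected array, any miR-224 array or any miR-452 array (0.24 to 0.32). SEC13 and SEC24B were called in no comparison of a mimic with a control, with changes of -0.2 to 0.07 for SEC13 and -0.23 to 0.23 for SEC24B. With miR-452 against untransfected, SEC24A was lower in PC3 (-0.3) and DU145 (-0.33), and SEC24D in DU145 (-0.31). Quantile normalization ended these 3 calls (-0.15, -0.09 and -0.1), as did leaving out either untransfected array (-0.34 to -0.27) for all 3, miR-452 replicate b in PC3 (-0.22) or miR-452 replicate a in DU145 (-0.23 and -0.21), and for SEC24D either miR-224 array (-0.31).

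In PC3 with miR-224 against scrambled, 4 coatomer genes were called higher and the other 4 were not called. These sets were not tested against each other. COPA, COPB1, COPB2 and ARCN1, which encode the alpha, beta, beta prime and delta subunits, rose with miR-224 against scrambled by 0.42 ± 0.097, 0.49 ± 0.096, 0.43 ± 0.089 and 0.58 ± 0.083. COPG1, COPE, COPZ1 and COPZ2, for the gamma, epsilon and zeta subunits, changed by -0.04, -0.26, 0.13 and -0.23, and none of these was called. ARCN1 read 10.6 and 10.6 with miR-224, 10.04 and 10.11 with miR-452, 10.06 and 9.99 with scrambled, and 10.47 and 10.3 untransfected. As with the SAR1 genes, the scrambled and miR-452 arrays lay together, below the untransfected and miR-224 arrays. ARCN1 and COPB1 were called without each array in turn, while COPA and COPB2 were not called without scrambled replicate c (0.36 and 0.34) or miR-224 replicate b (0.34 and 0.39). Against untransfected PC3 cells, miR-224 changed the 4 risers by 0.29, 0.22, 0.19 and 0.22, none called.

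With miR-452 against untransfected PC3 cells, COPB1 (-0.4 ± 0.096), COPB2 (-0.38 ± 0.089) and ARCN1 (-0.31 ± 0.083) were lower, and without untransfected replicate b none of the 3 was called (-0.29, -0.32 and -0.23). COPB1 was also lost without miR-452 replicate c (-0.33), COPB2 without miR-452 replicate b (-0.33) and ARCN1 without either (-0.27 and -0.35), and quantile normalization ended the calls of COPB2 (-0.24) and ARCN1 (-0.22). In DU145 the same comparison gave COPB1 (-0.5 ± 0.091), COPB2 (-0.44 ± 0.094) and COPG1 (-0.33 ± 0.1). COPB1 was as low in the scrambled array: it read 9.3 and 9.39 with miR-452, 9.32 with scrambled, and 9.83 and 9.85 untransfected in DU145. COPB2 read 9.01 and 9.18 with miR-452, 9.34 with scrambled, and 9.56 and 9.52 untransfected. The COPB1 and COPB2 calls were lost without either untransfected array (-0.51 to -0.42), and COPB2 under quantile normalization (-0.24).

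COPG1 was the coatomer gene with the clearest fall, in DU145 with miR-224. It read 8.39 and 8.4 with miR-224, 8.72 and 8.97 with miR-452, 9.09 with scrambled, and 9.13 and 9.22 untransfected in DU145. In PC3 it read 9.69 and 9.66 with miR-224, 9.86 and 9.65 with miR-452, 9.76 and 9.66 with scrambled, and 9.94 and 9.82 untransfected. The DU145 miR-224 arrays lay below every other DU145 array, whereas in PC3 the miR-224 arrays overlapped those of miR-452 and scrambled. MiR-224 against untransfected gave -0.78 ± 0.1 in DU145 (1.71-fold, limma adjusted p = 0.00193), which held without each array, and -0.21 ± 0.091 in PC3 (limma adjusted p = 0.188). Against scrambled the DU145 change was -0.69 ± 0.12 (limma adjusted p = 0.0251), lost without either untransfected or either miR-224 array with the value still at -0.69. The miR-452 call of COPG1 in DU145 was lost without either untransfected array (-0.37 and -0.28), either miR-224 array (-0.33) or miR-452 replicate a (-0.2), and was -0.1 after quantile normalization. MiR-224 lay below miR-452 by -0.45 ± 0.1 in DU145, a call also lost without either untransfected or either miR-224 array (-0.45).

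COPE was set apart by the scrambled array of DU145. It read 9.33 and 9.26 with miR-224, 8.99 and 8.99 with miR-452, 9.76 with scrambled, and 9.21 and 9.21 untransfected in DU145. In PC3 it read 10.19 and 10.02 with miR-224, 10.2 and 10.39 with miR-452, 10.34 and 10.4 with scrambled, and 10.2 and 10.38 untransfected. That single DU145 array was the highest of its line, and the PC3 groups of miR-452, scrambled and untransfected overlapped. The call of miR-452 against scrambled in DU145, -0.77 ± 0.1 (limma adjusted p = 0.0116), stood beside a change of -0.22 ± 0.082 against untransfected that was not called (limma adjusted p = 0.0668). Scrambled against untransfected gave 0.55 ± 0.1 (limma adjusted p = 0.0188), lost without either untransfected array (0.54 and 0.55).

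**Figure D4:**
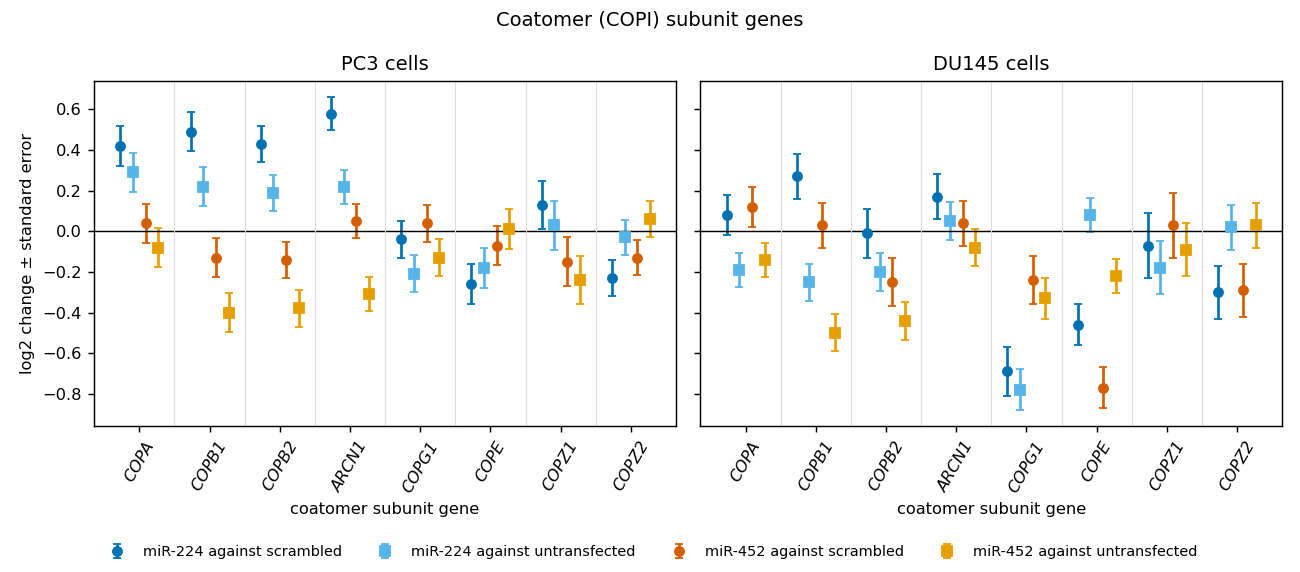
Points give the log2 change of the 8 measured coatomer genes with standard errors, in PC3 (left) and DU145 (right), for each mimic against each control. In PC3 COPA, COPB1, COPB2 and ARCN1 stand 0.42 to 0.58 above scrambled with miR-224, and in DU145 COPG1 changes by -0.69 (against scrambled) and -0.78 (against untransfected) with miR-224.

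Among the p24 proteins, which escort cargo such as GPI-anchored proteins and bind both coats, TMED10 fell with miR-224 in both lines. It read 10.43 and 10.37 with miR-224, 11.2 and 11.22 with miR-452, 11.37 and 11.35 with scrambled, and 11.36 and 11.29 untransfected in PC3. It read 10.14 and 10.08 with miR-224, 10.87 and 10.84 with miR-452, 11.21 with scrambled, and 11.2 and 11.1 untransfected in DU145. The miR-224 arrays lay well below all others in each line, and the miR-452 arrays lay below the controls. MiR-224 gave -0.96 ± 0.075 against scrambled and -0.92 ± 0.075 against untransfected in PC3 (limma adjusted p = 3.56e-05 and 5.77e-05), and -1.1 ± 0.1 and -1.04 ± 0.086 in DU145 (limma adjusted p = 0.0022 and 0.000306). These 4 calls held without each array that could be left out, which for DU145 against scrambled excludes the single scrambled array. The changes of the 2 lines differed by 0.14 ± 0.12 and 0.12 ± 0.1, neither called. TMED10 was also lower with miR-452 than untransfected in DU145 (-0.29 ± 0.086, limma adjusted p = 0.032), a call lost without either untransfected array (-0.24 and -0.34) or miR-452 replicate a (-0.31) and under quantile normalization (-0.19).

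No p24 gene besides TMED10 was called lower with miR-224 than either control. TMED3 still read lowest with miR-224 in PC3, at 8.75 and 8.7, below every other PC3 array. TMED2, the partner of TMED10 in p24 complexes, changed by -0.12 to 0.13 over the 8 comparisons of a mimic with a control, TMED3 by -0.3 to -0.02 and TMED5 by 0.13 to 0.31, and none of the 3 was called in any. TMED9 was higher with miR-224 than with miR-452, by 0.37 ± 0.085 in PC3 and 0.55 ± 0.11 in DU145. The PC3 call was lost without miR-224 replicate b (0.31) or miR-452 replicate c (0.28), and the DU145 call without miR-224 replicate c or miR-452 replicate a (0.44 each). Against untransfected DU145 cells TMED9 was lower with miR-452 (-0.33 ± 0.11), lost without either untransfected array (-0.38 and -0.29) or miR-452 replicate a (-0.23) and under quantile normalization (-0.11).

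The SNAREs, which fuse the vesicles with their target, changed little. BET1, GOSR2 and SEC22B were higher with miR-224 than with scrambled in PC3, by 0.36 ± 0.11, 0.29 ± 0.087 and 0.34 ± 0.1. Against untransfected cells their changes of 0.16, 0.16 and 0.17 were not called. Quantile normalization ended all 3 calls (0.3, 0.21 and 0.25), as did leaving out scrambled replicate c (0.34, 0.19 and 0.33) or miR-224 replicate b (0.2, 0.24 and 0.43). BET1 was also lost without scrambled replicate b (0.39) or either miR-452 array (0.36), GOSR2 without either untransfected or miR-452 array (0.29) or miR-224 replicate a (0.33), and SEC22B without scrambled replicate b (0.35) or miR-224 replicate a (0.25). STX5 and GOSR2 were lower with miR-452 than untransfected in DU145 (-0.35 ± 0.089 and -0.3 ± 0.089), and were not called after quantile normalization (-0.12 and -0.04) or without untransfected replicate b (-0.35 and -0.23), untransfected replicate c (-0.34 and -0.37) or miR-452 replicate a (-0.27 and -0.26), and GOSR2 also not without either miR-224 array (-0.3). COPZ1 and COPZ2, of the coatomer, also had no call, which made 9 of the 34 members with no call in the 8 comparisons of a mimic with a control, together with ARF1, SEC13, SEC23B, SEC24B, TMED2, TMED3 and TMED5. The other 25 were called at least once, and SEC23A most often, in 6 of 8.

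The difference between lines was tested as the change in PC3 minus the change in DU145. For miR-224 against untransfected, 4 members were called with a larger (less negative or more positive) change in PC3 and 0 the other way, where 4.33% of all genes were called higher and 0.794% lower. They were COPG1 (0.57 ± 0.14), SAR1B (0.56 ± 0.14), SEC24D (0.53 ± 0.13) and COPA (0.48 ± 0.13), with limma adjusted p of 0.0313, 0.0328, 0.0291 and 0.0425. None of these was called without either DU145 untransfected array (0.46 to 0.61), either DU145 miR-224 array (0.47 to 0.63), PC3 untransfected replicate c (0.41 to 0.51) or PC3 miR-224 replicate b (0.41 to 0.58), nor COPG1 and SEC24D without PC3 miR-224 replicate a (0.55 each). Quantile normalization ended the calls of SAR1B, SEC24D and COPA (0.43, 0.42 and 0.38). For miR-224 against scrambled SAR1B alone was called (0.68 ± 0.15, limma adjusted p = 0.0466), where 0.909% of all genes were higher and 0.245% lower. For miR-452 against scrambled COPE alone was called (0.7 ± 0.14, limma adjusted p = 0.0423), where 0.473% of all genes were higher and 0.147% lower. Both of these use the single DU145 scrambled array. SAR1B was lost without any 1 PC3 scrambled, miR-224 or miR-452 array (0.6 to 0.76) or any 1 DU145 untransfected or miR-224 array (0.62 to 0.75). COPE was lost without any 1 PC3 scrambled, miR-224 or miR-452 array (0.6 to 0.79), any 1 DU145 untransfected or miR-224 array or DU145 miR-452 replicate a (0.7), and both were lost under quantile normalization (0.58 and 0.63). For miR-452 against untransfected limma called 0 in either direction (2 of 34 at an unadjusted p under 0.05), where 2.2% of all genes were higher and 0.68% lower.

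**Figure D5:**
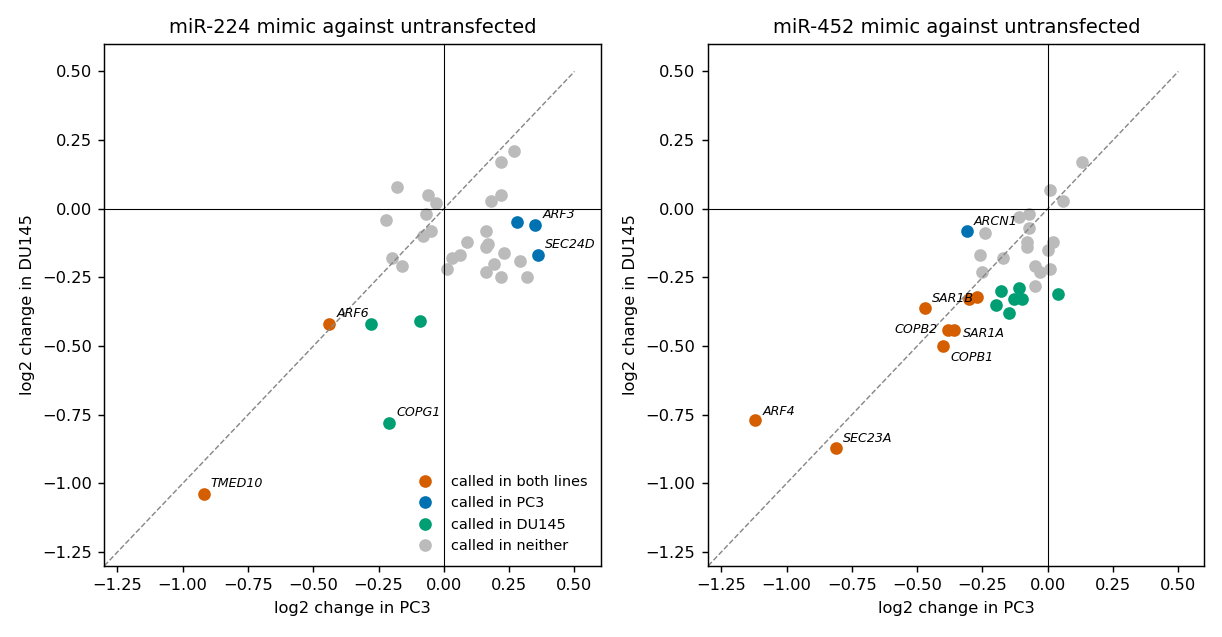
Each point is 1 of the 34 members, with its log2 change against untransfected cells in PC3 (horizontal) and DU145 (vertical), for miR-224 (left) and miR-452 (right); colour shows the lines in which it was called and the dashed line marks equal change. With miR-224 TMED10 (-0.92 and -1.04) stands apart in both lines and COPG1 (-0.21 and -0.78) in DU145, and with miR-452 ARF4 and SEC23A stand apart in both.

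Some members share a promoter element. RefSeq promoters, from 250 bases before to 50 after the start, were matched for 33 of the 36 listed members and for 14210 genes. The letters TGACGTGG, the core of the unfolded protein response element that ATF6 and its relatives bind, were found on either strand in 9 of the 33 (27.3%), against 1.12% of all genes. The 9 were ARF1, GBF1, SEC23A, SEC24A, SEC16A, COPA, COPB1, COPB2 and STX5. The letters ACGTGGC, which overlap that core and are known from Golgi stress elements, were in 15 of the 33 (45.5%), against 4.95%. The E box CACGTG was in 12.1% against 10.9%, the CCAAT box in 39.4% against 42.2%, and the ER stress response element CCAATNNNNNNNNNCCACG in 0 of the 33 against 0.134%. A match is a string of letters and does not show a bound site.

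The windows of COPB1 and COPB2 are shown, with the reverse complement of the core in capitals. They were chosen because both genes were called lower with miR-452 than untransfected in both lines as deposited, and because they lie wholly before the gene's annotated start. Quantile normalization ended both COPB2 calls, and in DU145 COPB1 was as low in the scrambled array. The windows are given on the coding strand of GRCh38.p14, at chr11:14499832-14499879 and chr3:139389816-139389863, both on the minus strand.
COPB1: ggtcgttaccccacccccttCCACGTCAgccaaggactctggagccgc
COPB2: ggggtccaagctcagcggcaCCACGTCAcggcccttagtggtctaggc
Of the 9 genes with the core, 5 were lower with miR-452 than untransfected in PC3 and 6 in DU145, against 3 and 6 of the 22 measured members whose promoter lacked it. Of all genes, 14.1% were lower in PC3 and 19.9% in DU145. With the core, quantile normalization ended the calls of GBF1, SEC24A and COPB2 in both lines and of STX5 in DU145. Without the core, it ended the call of ARCN1 in PC3 and all 6 calls in DU145. The median changes were -0.27 and -0.33 with the core and -0.08 and -0.2 without it. With miR-224 against scrambled in PC3, 5 of the 9 and 9 of the 22 were higher, where 12.1% of all genes were. These counts were not tested.

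Other genes of the pathway were counted in the same comparisons. Of 52 further ER to Golgi genes (tethers, cargo receptors, ARF regulators and other SNAREs), 48 were measured. Counts for these genes, and for the unfolded protein response genes below, are from the values as deposited with all arrays. They were not recounted under the other settings. In PC3, 16 were above (all genes 12.1%) and 5 below (all genes 4.65%) the scrambled mimic with miR-224. Against untransfected PC3 cells miR-224 gave 5 higher (all genes 2.84%) and 5 lower (all genes 6.85%). With miR-452 against untransfected in PC3, 0 were higher and 19 lower (all genes 8.12% and 14.1%). In DU145, 1 was higher and 17 lower (all genes 8.31% and 19.9%). Against scrambled in PC3, miR-452 gave only 1 higher and 4 lower (all genes 2.89% and 2.33%). Scrambled against untransfected PC3 cells gave 0 higher and 9 lower (all genes 3.32% and 10.9%). In DU145, with 1 scrambled array, the list's median change was -0.1 for miR-452 against scrambled and -0.12 for scrambled against untransfected. In DU145 with miR-224 against untransfected, 0 were higher and 7 lower (14.6% of the list), near the 15.5% of all genes called lower. TRAPPC4, a subunit of the TRAPP tether, was lower with miR-224 than untransfected, by -1.32 ± 0.081 in PC3 and -1.36 ± 0.097 in DU145 (limma adjusted p = 2.41e-05 and 0.000208). KDELR3, a receptor that returns ER proteins in COPI vesicles, was lower by -0.82 ± 0.079 and -0.96 ± 0.11 in the same comparisons. Against scrambled its miR-224 changes were -0.41 ± 0.079 in PC3 and -0.97 ± 0.13 in DU145. The fall was not particular to miR-224: in DU145 KDELR3 changed by -0.74 ± 0.13 with miR-452 against scrambled. In PC3 its mean was 9.89 untransfected, 9.49 with scrambled, 9.42 with miR-452 and 9.08 with miR-224. ARL1, an ARF-like GTPase of the trans-Golgi, was lower with miR-452 than untransfected by -1.05 ± 0.11 in PC3 and -0.99 ± 0.11 in DU145 (limma adjusted p = 0.000164 and 0.00171). MIA3, which helps large cargo such as collagen into COPII vesicles, was higher with miR-224 than untransfected in PC3 (0.65 ± 0.086, limma adjusted p = 0.000941).

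Genes of the unfolded protein response and of the CREB3 factors, several of which are known to activate coat genes, were all measured (26 of 26). Set directly against miR-452 in PC3, miR-224 gave 16 higher and 1 lower, with a median of 0.35, where 12.5% of all genes were higher and 5.99% lower. With miR-452 against scrambled in PC3, 0 were higher and 6 lower (all genes 2.89% and 2.33%), among them PDIA4 (-0.54 ± 0.1), a disulfide isomerase of the ER, and MANF (-0.51 ± 0.075), a secreted stress protein. Against untransfected cells, miR-452 gave 0 higher and 7 lower in PC3 (all genes 8.12% and 14.1%) and 1 higher and 8 lower in DU145 (all genes 8.31% and 19.9%), with PDIA4 at -0.64 ± 0.1 and -0.72 ± 0.091 and ATF4, a stress transcription factor, at -0.55 ± 0.094 in PC3. With miR-224 in PC3, 5 were higher and 1 lower than with scrambled (all genes 12.1% and 4.65%), and 3 higher and 0 lower than untransfected (all genes 2.84% and 6.85%), among them HSPA5, the main chaperone of the ER (0.36 ± 0.092, limma adjusted p = 0.0297). In DU145, miR-224 gave 0 limma calls against scrambled (5 of 26 at an unadjusted p under 0.05), and 1 higher and 2 lower (3.85% and 7.69%) against untransfected, below the 5.44% and 15.5% of all genes. The 2 lower were EIF2AK3 (-0.35), an ER stress kinase, and ATF6, the stress sensor that is itself a transcription factor (-0.64 ± 0.099, limma adjusted p = 0.00367). EIF2AK3 was as low without miR-224: it read 6.87 and 6.94 with miR-224, 6.81 and 6.85 with miR-452, 6.86 with scrambled, and 7.2 and 7.32 untransfected. ATF6 was also lower with miR-452 than untransfected in DU145 (-0.46 ± 0.099), and read 8.9 with scrambled beside 9.21 and 9.16 untransfected. For miR-224 against untransfected, ATF6 was also called in the difference between lines, PC3 minus DU145 (0.76 ± 0.13, limma adjusted p = 0.00613). Whether these genes bear on the coat genes was not tested.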

How the data were processed

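Total RNA (100 ng) of 8 PC3 and 7 DU145 samples was labelled with the WT Expression kit and hybridised, per the labels' protocols. The deposited values are log2 levels, which the authors made with RMA16 in GeneSpring GX 11.0, normalizing each line separately, per the series' design text. RMA16 is understood, though not stated, to add 16 before the logarithm, so folds of weak genes may be understated. The build was not given in the sources used here. The authors left out 1 DU145 scrambled array for bad performance.

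Of 28869 features, 19310 carried 1 symbol, 1752 several and 7807 none. Symbols were updated by Entrez number (19279 matched), and features of a gene were averaged, giving 18377 genes. limma 3.58.1 in R 4.3.3 fitted 4 group means per line, or 8 for the differences between lines, two-sided, with Benjamini-Hochberg adjustment over all genes within a comparison. Values after ± are standard errors. Replicate arrays correlated at 0.991 to 0.998. The lone DU145 scrambled array was taken to vary like the other DU145 groups. The 8 members given in every array are those with the largest called changes of a mimic against a control. ARCN1 was added after its values were seen. Some array values of other genes, such as COPB1, COPB2, TMED3, EIF2AK3 and ATF6, were also given outside that rule. Alternatives were low-level genes left out (20th percentile), unaveraged features, quantile normalization, trend and robust moderation, a replicate block, all arrays in 1 fit, and each array left out. The fits were tested on simulated data. Comparisons of mimics with the same control share its arrays. The members and lists were chosen with earlier results of these data known. Whether probes cross-react between close relatives was not tested.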

Additional observations from a re-analysis of the deposited data

Results flagged for a closer look

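In 6 cases the test of the difference between lines, given as PC3 minus DU145, called a member in the values as deposited. None of these calls was kept with a replicate block, and only COPG1 kept its call after quantile normalization. For miR-224 against untransfected cells the differences were 0.57 for COPG1, 0.56 for SAR1B, 0.53 for SEC24D and 0.48 for COPA. There 4.33% of all genes were called higher and 0.794% lower. For miR-224 against scrambled it was 0.68 for SAR1B, and for miR-452 against scrambled it was 0.7 for COPE. Both rest on the single DU145 scrambled array, and the shares of all genes are given with the test above. SAR1B, SEC24D and COPA had positive changes in PC3 and negative changes in DU145 against untransfected cells, of 0.32 and -0.25, 0.36 and -0.17, and 0.29 and -0.19, whereas COPG1 had -0.21 in PC3 and -0.78 in DU145. For COPE the change of -0.07 in PC3 and -0.77 in DU145 rests in DU145 on 1 scrambled array at 9.76, the highest of that line. Groups held at most 2 arrays, so no test for a single outlying array was made.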

How the results depend on the processing

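Each of the 98 calls of a member was recomputed under other settings, and none changed direction. Of these calls, 98 of 98 were kept with low-level genes left out and with trend and robust moderation, 96 of 98 with all features unaveraged, 91 of 92 within-line calls with all 15 arrays in 1 fit, 65 of 98 after quantile normalization and 45 of 98 with a replicate block. Leaving out 1 array kept 538 of 779.

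The replicate letters did not pair the arrays (correlations of same-letter deviations from -0.31 to 0.273), so a replicate block stands here as an alternative. With the block, the members called numbered 8 for PC3 miR-224 against scrambled, 1 for PC3 miR-224 against untransfected, 8 for PC3 miR-224 against miR-452, 0 for DU145 miR-224 and 0 for DU145 miR-452 against scrambled, 2 and 2 against untransfected, 1 for DU145 scrambled against untransfected, and 0 for the 3 differences between lines with a call. Crossing the letters gave 9 calls for PC3 miR-452 against untransfected and 5 for DU145 miR-224 against miR-452, chosen after seeing the data.

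Quantile normalization gave 10 calls for PC3 miR-224, 5 for PC3 miR-452 and 3 for PC3 scrambled against untransfected, 5 for DU145 miR-452 against untransfected, and for the differences between lines 0 for miR-452 against scrambled, 1 for miR-224 and 1 for miR-452 against untransfected. It moved the share of calls over all genes that were higher by over 10 percentage points in 11 comparisons. After it and as deposited, these shares were 57% and 72.2% for PC3 miR-224 against scrambled, 43.8% and 29.3% against untransfected and 56.7% and 67.6% against miR-452, and 44.2% and 23.3% for PC3 scrambled against untransfected. In DU145 they were 43% and 32.5% for miR-224 and 49.9% and 27.5% for miR-452 against scrambled, and 39.2% and 26% for miR-224 and 36.2% and 22% for scrambled against untransfected. For the differences between lines they were 58.3% and 78.8% for miR-224 and 62.4% and 76.3% for miR-452 against scrambled, and 64.6% and 84.5% for miR-224 against untransfected. Trend and robust moderation gave 10 for PC3 miR-224 against untransfected, 8 for DU145 miR-452 against scrambled, 7 for DU145 scrambled against untransfected, 8 for DU145 miR-224 against miR-452, and 2 and 7 for the differences between lines for miR-224 against scrambled and untransfected. Leaving out low-level genes gave 2 for the difference between lines for miR-224 against scrambled, and all 15 arrays in 1 fit gave 5 for DU145 scrambled against untransfected. The cause was not tested.

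Leaving out 1 array in turn gave these ranges of members called. In PC3 they were 7 to 15 for miR-224 and 3 to 3 for miR-452 against scrambled, 1 to 5 for miR-224, 2 to 10 for miR-452 and 1 to 7 for scrambled against untransfected, and 9 to 16 for miR-224 against miR-452. In DU145 they were 1 to 4, 2 to 7, 2 to 11, 2 to 23, 0 to 9 and 2 to 7 in the same order. For the differences between lines they were 0 to 2 and 0 to 1 for miR-224 and miR-452 against scrambled, and 0 to 6 and 0 to 1 against untransfected. With 2 arrays or 1 in a group, the number of arrays limits the precision.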
